A study of Mus musculus with 6 samples.

Results

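Complement is a cascade of secreted proteins that tags and lyses targets. It is started by the C1 complex in the classical pathway, by collectins in the lectin pathway and by factor B and factor D in the alternative pathway, and all of these meet at C3. Host cells hold the cascade back with the C1 inhibitor in solution and with CD46, CD55 and CD59 at the membrane. Outside the liver, fibroblasts, glia and macrophages make several of these proteins, and mouse Cd46 is known above all from the testis, while Cr1l (Crry) does much of its work in other mouse tissues.

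The genes described here are 9 complement components and regulators: C3, C4b, C1ra, Cfb, Cfd, Serping1, Cd46, Cd55 and Cd59a. They were found by gene name and were selected on earlier results of the same libraries, namely the counts and the differences between the groups, so their differences are given as a description with no test. Of the 9, 8 are among the 20173 genes in the count table, and Cfd, the gene of factor D, was not analysed here. The filter on low counts (CPM, the counts scaled to a common library size, of 1 or more in 3 or more libraries) was passed by 7 of them and by 12152 genes in all. Cd46 passed it only through the Slit2th libraries, where it is high, and so had to differ.

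RNA was sequenced from 6 cultures of sympathetic chain cells of 3-week-old male mice, kept for 4 to 5 days in neuronal medium. The 3 Slit2fl/fl libraries come from mice with floxed Slit2 alleles and no Cre, and the 3 Slit2th libraries from mice in which Th-Cre, driven by the promoter of tyrosine hydroxylase, deletes the floxed gene. No library from mice with Th-Cre alone was part of the comparison. The labels name each genotype but no animals or pools, so the spread between libraries may be partly technical.

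The libraries held 1255939 to 3155406 counts, and 3 counts, taken as the floor of detection, correspond to 0.951 to 2.39 CPM, depending on the library (counting error only). Slit2 itself stood at 43.8 to 55.1 CPM in the Slit2fl/fl cultures and at 11.4 to 15.2 CPM in the Slit2th cultures, in the direction of the labels. The libraries are labelled neuron, but Th had 0 counts in all 6 and the 15 sympathetic neuron markers found summed to 168.5 to 574.5 CPM, against 6122 to 20680 CPM for 12 markers of Schwann cells and satellite glia and 2761 to 5497 CPM for 15 fibroblast markers. In such bulk cultures, fewer cells of a type and less RNA per cell cannot be told apart. Replicate 1 stood apart in both groups, with a Pearson correlation across genes of 0.842 to 0.869 to the others of its group, against 0.938 and 0.965 between replicates 2 and 3.

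Of the 9 genes, 6 were found in RefSeq's table of promoter windows (GRCm38.p6, windows around the start of transcription): C1ra, C3, Cd46, Cd55, Cd59a and Cfd, with C4b, Cfb and Serping1 missing. Printed are the windows of Cd59a, which had the highest level per length of the genes in the table, and of Cd46, which had the largest fitted difference. The groups overlapped in Cd59a, and the filter fixed the direction of Cd46, so the 2 genes are not read as a contrast. Both are written 5′ to 3′ on the strand of the gene, and the capitals mark the only motif found in each, the core GAAANNGAA of the interferon-stimulated response element, which lies at -187 in Cd59a and, on the other strand, at 4 in Cd46.
Cd59a, chr2:104095551-104095850, plus strand: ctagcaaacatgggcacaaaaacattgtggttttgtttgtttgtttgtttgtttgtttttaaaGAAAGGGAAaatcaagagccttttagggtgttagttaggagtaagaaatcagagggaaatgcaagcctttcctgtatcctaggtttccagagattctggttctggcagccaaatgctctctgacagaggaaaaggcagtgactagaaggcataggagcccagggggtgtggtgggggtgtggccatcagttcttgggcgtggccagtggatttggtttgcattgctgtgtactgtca
Cd46, chr1:195092199-195092498, minus strand: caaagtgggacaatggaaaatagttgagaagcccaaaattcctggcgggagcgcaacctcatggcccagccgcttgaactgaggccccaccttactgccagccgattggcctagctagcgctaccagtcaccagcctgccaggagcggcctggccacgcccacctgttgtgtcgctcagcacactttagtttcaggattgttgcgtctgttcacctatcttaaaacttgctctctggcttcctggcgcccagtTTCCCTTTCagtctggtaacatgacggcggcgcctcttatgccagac
The 4 motifs given here were searched on both strands, and none of the matches printed overlaps another. The response element core was in 2 of the 6 windows and in 8.56% of all 32851 windows, the C/EBP motif TTGCNNAA in 2 (C1ra and C3) and 10.8%, the TATA box TATAAA in 1 (C3) and 13.6%, and the kappa B core GGGANTTTC in 0 and 1.11%. A match describes the letters of the window only.

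The levels of the 8 genes spanned 3 orders of size. Per kilobase of merged exons, Cd59a had a mean of 145 CPM per kb over the 6 libraries (95.7 to 211) and Serping1 58.4 CPM per kb (18.2 to 132), which place them at the percentiles 97.4 and 94.0 of all genes tested. Cd59a was above Serping1 per length in every library, although their ranges over libraries overlap. By their medians over the 6 libraries, then came C1ra at 2.28 CPM per kb, Cd55 at 0.791, Cfb at 0.682, Cd46 at 0.231, C3 at 0.174 and C4b at 0.0988, and the ranges of neighbours among these 6 overlap. The range of Cd46, from 0 to 9.63 CPM per kb, was the widest of these 6, and its highest value came from Slit2th replicate 1. Together, Serping1 and Cd59a took 93.7 to 97.4% of the counts of the 8 genes in every library but Slit2th replicate 1, where they took 74.7% and Cd46 most of the rest. The cultures thus carried transcripts of an inhibitor of the start and of an inhibitor of the end of the cascade, with the central component C3 close to the floor.

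**Figure D1:**
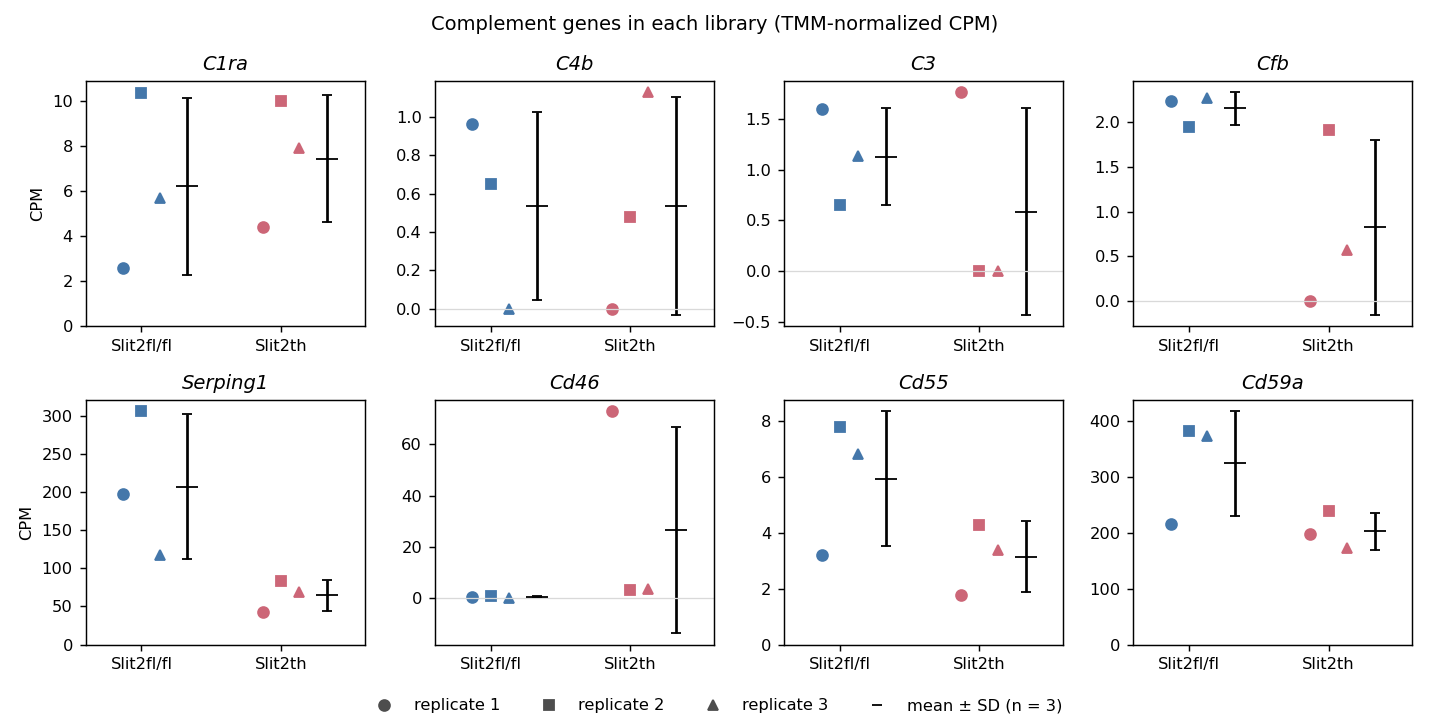
TMM-normalized CPM (vertical axes, one scale per gene) of the 8 complement genes in the table, with Slit2fl/fl in blue and Slit2th in red, one symbol per replicate number, and the mean ± SD of 3 libraries in black. Serping1 and Cd46 separate the groups, Cd59a, Cd55 and C1ra overlap, and C3, C4b and Cfb are at a few counts.

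Serping1 (ENSMUSG00000023224) encodes the C1 inhibitor, a serpin that blocks C1r, C1s and the MASPs, and its 8 merged exons (GRCm38, chromosome 2, 84765387 to 84775444, minus strand) overlap no other gene. Slit2fl/fl replicates 1 to 3 held 618, 472 and 207 Serping1 counts, and Slit2th replicates 1 to 3 held 48, 174 and 121. After normalization these were 197.9, 305.9 and 117.7 CPM against 42.4, 83.0 and 68.3 CPM. The groups did not overlap, and the Slit2th mean was 3.21-fold lower, 64.6 ± 20.6 CPM against 207 ± 94.5 CPM (SD, n = 3 each). On the log2 scale the fitted difference was -1.68, with a standard error (SE) of 0.45. With single libraries left out it ran from -2.03 to -1.28, and it was -1.45 without Slit2th replicate 1, the library with the lowest level. No 50-base window of its transcripts was found in another gene's transcripts. Of the 13 fibroblast markers tested, 11 were higher and 2 lower in Slit2th, and their median was 0.56 on the log2 scale, and their part in the level of Serping1 was not tested.

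Cd59a (ENSMUSG00000032679) encodes the membrane protein that stops C9 from building the lytic pore, and lies on the plus strand of chromosome 2 from 104095801 to 104115354. Its counts were 675, 590 and 656 in Slit2fl/fl against 223, 500 and 307 in Slit2th, or 216.1, 382.4 and 373 CPM against 196.8, 238.6 and 173.3 CPM. The groups overlapped, since Slit2th replicate 2 was above Slit2fl/fl replicate 1, while the means were 324 ± 93.4 and 203 ± 33.1 CPM (SD, n = 3 each). The log2 fold change was -0.67 (SE 0.35), between -0.89 and -0.53 with single libraries left out. Only 3.87% of its 50-base windows were shared with another gene, all of them with its paralog Cd59b.

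Cd59b, the neighbouring gene for the same kind of inhibitor (chromosome 2, 104069849 to 104091187), belongs to the wider list and was tested. It stood at 22.7, 9.72 and 40.4 CPM in Slit2fl/fl against 1.76, 5.25 and 7.34 CPM in Slit2th, with no overlap between the groups. The fit gave -2.28 on the log2 scale (SE 0.66), with raw and adjusted p of 0.00714 and 0.422 over all genes by edgeR's quasi-likelihood test. Its raw p stayed under 0.05 in all 13 alternatives tried.

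The ratio of Serping1 to Cd59a counts within a library does not depend on depth or scaling. Slit2fl/fl replicates 1 to 3 had ratios of 0.916, 0.800 and 0.316, against 0.215, 0.348 and 0.394 for Slit2th replicates 1 to 3. Slit2fl/fl replicate 3 therefore lay among the Slit2th libraries by this ratio, and the exact 95% intervals (0.269 to 0.369 for that library) cover counting error only. The groups overlapped in the ratio although they did not in Serping1 itself.

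**Figure D2:**
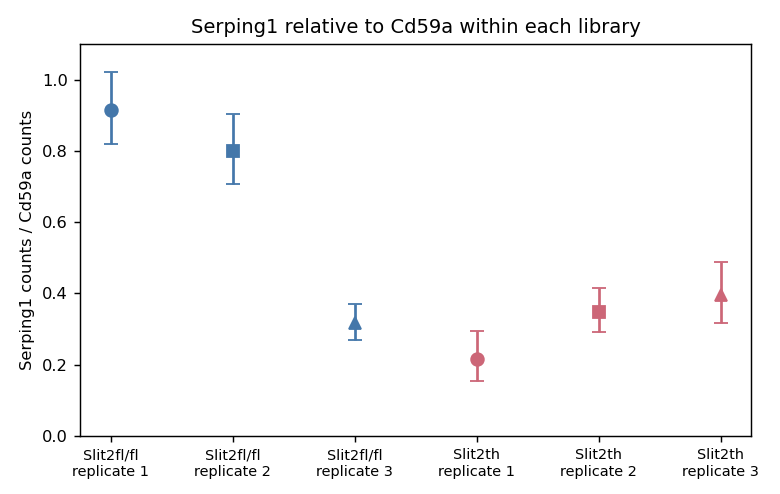
Serping1 counts divided by Cd59a counts (vertical axis, from 0) in each of the 6 libraries, with exact 95% binomial intervals as bars, Slit2fl/fl in blue and Slit2th in red. Slit2fl/fl replicates 1 and 2 lie at 0.916 and 0.800, and the other 4 libraries between 0.215 and 0.394.

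Cd46 (ENSMUSG00000016493), the membrane cofactor for cleavage of C3b and C4b, lies on the minus strand of chromosome 1 from 195036826 to 195092249. Its counts were 1, 1 and 0 in Slit2fl/fl against 83, 6 and 6 in Slit2th, or 0.320, 0.648 and 0 CPM against 73.2, 2.86 and 3.39 CPM. The Slit2th libraries were all above the Slit2fl/fl libraries, and 83 of the 95 Slit2th counts came from replicate 1. As a description of the pooled reads, 95 against 2 counts, the rate was 62.2 times that of Slit2fl/fl, with a counting interval (exact, 95%) of 16.7 to 521 that holds no spread between libraries and is no test of the groups. Without Slit2th replicate 1 it was 10.5 times (2.34 to 96.9), on 12 counts against 2. The fitted log2 fold change of 6.09 (SE 1.59) rests on those 2 counts in Slit2fl/fl.

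The exons of Cd46 overlap those of the antisense gene A330023F24Rik, and whether reads were counted by strand is not given in the sources used here. A330023F24Rik had 0, 3 and 1 counts in Slit2fl/fl against 2, 4 and 8 in Slit2th, and its part in the Cd46 counts was not tested. Other transcripts were high in that library too, where C1qa had 84 counts and the 15 macrophage markers summed to 626 CPM, against 42.6 to 154 CPM in the other libraries, and their part in the level of Cd46 was not tested. The 2 markers of sperm and testis in the table, of 7 listed, had 0 counts in that library. Cr1l, the related regulator next to Cd46 (chromosome 1, 195097382 to 195131586), stood at 31.4, 66.8 and 55.7 CPM in Slit2fl/fl against 42.4, 60.1 and 75.1 CPM in Slit2th, with overlap and a log2 fold change of 0.21 (SE 0.41, adjusted p = 0.844 by edgeR's test) that became -0.05 without Slit2fl/fl replicate 1.

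Cd55, the decay-accelerating factor that takes C3 convertases apart (chromosome 1, minus strand, 130439027 to 130462744), had 10, 12 and 12 counts in Slit2fl/fl against 2, 9 and 6 in Slit2th. These were 3.20, 7.78 and 6.82 CPM against 1.76, 4.29 and 3.39 CPM. The groups overlapped through Slit2fl/fl replicate 1, and the log2 fold change was -0.83 (SE 0.64). Of its 50-base windows 9.12% occur in other genes, most of them in the paralog Cd55b, which had 1 count in all.

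C1ra encodes C1r, the protease that starts the classical pathway within the C1 complex (chromosome 6, plus strand, 124512405 to 124523443). Its counts were 8, 16 and 10 in Slit2fl/fl against 5, 21 and 14 in Slit2th, or 2.56, 10.4 and 5.69 CPM against 4.41, 10.0 and 7.90 CPM. The groups overlapped fully, with a log2 fold change of 0.33 (SE 0.64) that became -0.07 without Slit2fl/fl replicate 1. Since 50.8% of its 50-base windows occur in other genes, most of them in C1rb, how the counting treated shared reads could change its level.

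C3, the protein on which all pathways converge (chromosome 17, minus strand, 57203970 to 57228136), had 5, 1 and 2 counts in Slit2fl/fl against 2, 0 and 0 in Slit2th. As a description of the pooled reads, the Slit2th rate was 0.327 times that of Slit2fl/fl (exact 95% counting interval 0.0338 to 1.64). This interval, like that of Cfb below, holds no spread between libraries and is no test of the groups. Cfb, the protease of the alternative pathway's convertase (chromosome 17, minus strand, 34856374 to 34862518), had 7, 3 and 4 counts in Slit2fl/fl against 0, 4 and 1 in Slit2th, and its pooled ratio was 0.467 (0.132 to 1.37). All its Slit2th libraries were below all its Slit2fl/fl libraries in CPM, but by 1.91 against 1.94 CPM at the closest, on 4 and 3 counts. C4b, the C4 component of the classical pathway (chromosome 17, minus strand, 34728380 to 34743882), had 3, 1 and 0 counts against 0, 1 and 2, and it did not pass the filter. At so few counts, C3, Cfb and C4b allow no statement on a difference between the groups. Cfb shares 73.0% of its windows with the overlapping gene Gm20547 on the same strand, and C4b 34.6% with C4a, which had 5 counts in Slit2fl/fl replicate 1 and 0 in the other libraries.

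The comparison as a whole can be read against the background of all genes. Of the 7 genes that passed the filter, 5 were on the negative and 2 on the positive side, with a median of -0.83 against -0.05 over all genes tested. Over all genes tested, 6347 were on the negative and 5805 on the positive side. Nothing about complement can be read from this, since the 7 genes were selected on these same differences. The sign of Cd46 was fixed by the filter, and C3 and Cfb are at too few counts for a sign to be read. The median is the value of Cd55 (SE 0.64), whose groups overlapped. Serping1 and Cfb had every Slit2th library below every Slit2fl/fl library, as did 9.72% of all genes tested, though for Cfb this rests on the scaling, since by library totals 4 counts in Slit2th replicate 2 are a higher rate than 3 counts in Slit2fl/fl replicate 2. Slit2th was above throughout in 8.74% of all genes and in Cd46, of which nothing can be read, as the filter fixed it. After adjustment, 0% of the 12152 genes passed (edgeR's quasi-likelihood test, adjusted p under 0.05), while at a raw p under 0.05 there were 3.99% higher and 6.78% lower in Slit2th.

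**Figure D3:**
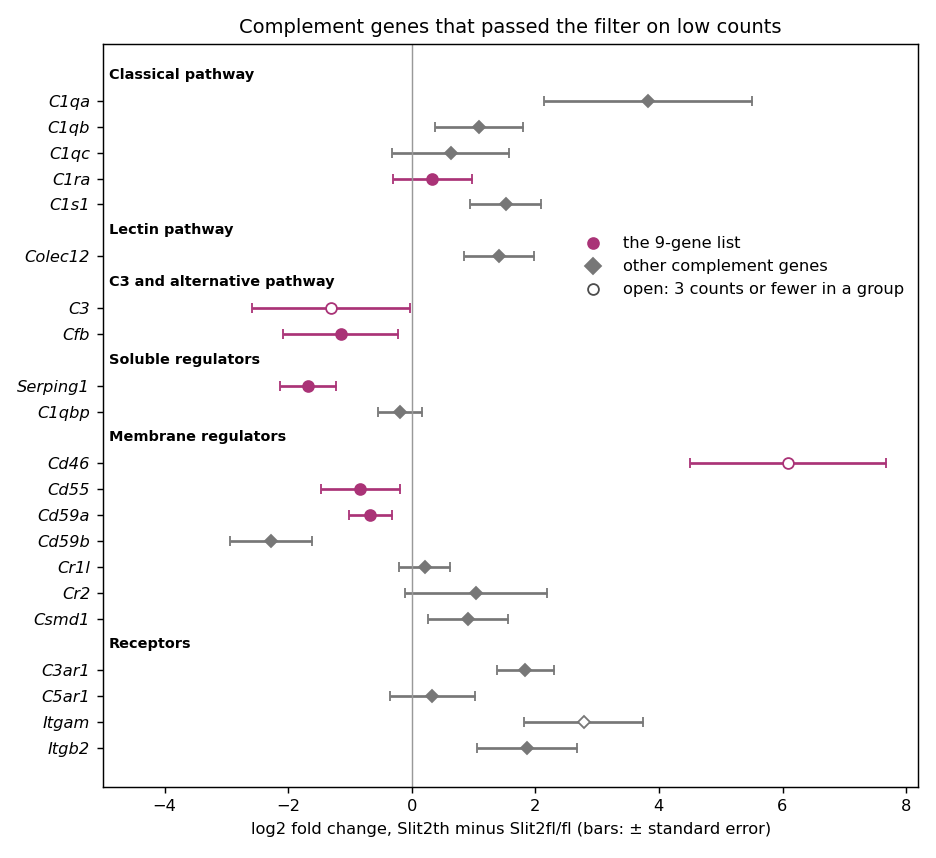
Log2 fold change (horizontal axis, Slit2th minus Slit2fl/fl) with its standard error for the complement genes described here that passed the filter, grouped by role, with the genes of the 9-gene list as circles, the others as diamonds, and open symbols where a group held 3 counts or fewer. Serping1, Cd55, Cd59a and Cd59b lie below 0, and the C1q genes, C1s1 and the receptors lie above it.

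The wider list held 48 other complement genes, of which 36 were in the table and 15 passed the filter. Of these 15, 13 lay on the positive and 2 on the negative side, beside 5805 and 6347 of all 12152 genes tested. After adjustment 0 passed the threshold (smallest adjusted p 0.422 by edgeR's test). At a raw p under 0.05, 6 were higher in Slit2th and 1, Cd59b, was lower, beside 3.99% and 6.78% of all genes tested. The wider list was chosen with earlier results of these data known, so the counts given here describe it and do not test it. Among the 6 is C1qa, whose log2 fold change became -0.68 without Slit2th replicate 1. The groups did not overlap in 6 of the 15, with Slit2th above in 5 and below in 1, again Cd59b, beside 8.74% and 9.72% of all genes tested. Itgam is in both counts of higher genes. Its sign and its lack of overlap were fixed, since only the Slit2th libraries carried it past the filter. Its raw p comes after the same selection, so nothing can be read from its place in either count.

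In the classical pathway, C1s1, which encodes the protease C1s that C1r activates, stood at 1.92, 7.13 and 5.12 CPM in Slit2fl/fl against 11.5, 13.8 and 14.1 CPM in Slit2th, without overlap. The fit gave 1.52 on the log2 scale (SE 0.57), with raw and adjusted p of 0.0248 and 0.429 by edgeR's quasi-likelihood test, and the raw p was 0.0651 without Slit2th replicate 2 and 0.0664 without Slit2th replicate 3. Both C1r and C1s are targets of the C1 inhibitor, and only C1s1 of their genes separated the groups, a difference between the genes that was not tested.

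The 3 chains of C1q, the recognition part of C1 that macrophages make, had unlike values across the libraries. C1qa had 10, 2 and 0 counts in Slit2fl/fl against 84, 4 and 0 in Slit2th, and its log2 fold change of 3.82 (SE 1.68, adjusted p = 0.462 by edgeR) became -0.68 without Slit2th replicate 1. C1qb, at 13.8, 5.18 and 2.27 CPM against 27.4, 8.11 and 12.4 CPM, differed by 1.09 on the log2 scale (SE 0.71), which ran from 0.48 without Slit2th replicate 1 to 2.07 without Slit2fl/fl replicate 1, where its raw p by edgeR's test was 0.0263. C1qc had 0.63 (SE 0.95), or 0.00 without Slit2fl/fl replicate 3 and 1.29 without Slit2fl/fl replicate 1. In Slit2th replicate 1, C1qc had 2 counts beside the 84 of C1qa.

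Of the 4 receptor genes that passed the filter, C3ar1 had the highest level. C3ar1, the receptor of the fragment C3a, stood at 7.68, 16.9 and 9.66 CPM in Slit2fl/fl against 41.5, 28.1 and 51.9 CPM in Slit2th, with no overlap. The fit gave 1.84 on the log2 scale (SE 0.46), with raw and adjusted p of 0.00306 and 0.422 by edgeR's quasi-likelihood test, and its raw p stayed under 0.05 in all 13 alternatives tried. Itgam and Itgb2 encode the 2 chains of complement receptor 3. Itgam had 1, 1 and 0 counts against 2, 6 and 5, and since it passed the filter only through the Slit2th libraries it had to be higher there. Itgb2 had 3, 2 and 1 counts against 3, 4 and 11, with no overlap in CPM and a log2 fold change of 1.87 (SE 0.81). C5ar1, the receptor of C5a, differed by 0.33 on the log2 scale (SE 0.69).

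These receptors and C1q are typical of macrophages, so the macrophage markers are given beside them. Summed, the 15 markers stood at 112, 68.0 and 42.6 CPM in Slit2fl/fl against 626, 124 and 154 CPM in Slit2th, and the log2 fold change was positive in 9 of the 10 tested. Mrc1 and Ptprc, both among these 9, passed the filter only through the Slit2th libraries, so that their sign was fixed. Of the markers, Lyz2 had 116, 66 and 30 counts against 323, 145 and 140, Adgre1 2, 1 and 2 against 7, 13 and 13, and Csf1r 2, 0 and 1 against 0, 3 and 5. Cd68 overlapped between the groups, with 45, 9 and 4 counts against 14, 18 and 12. Cx3cr1 was the marker with a negative log2 fold change, at -1.14 (SE 1.23). The part of the macrophage markers in the levels of C1q and the receptors was not tested. The highest sum, in Slit2th replicate 1, came mostly from Lyz2 and from Aif1, which had 206 counts there and 0 to 2 in each other library, while Csf1r had 0 counts there.

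**Figure D4:**
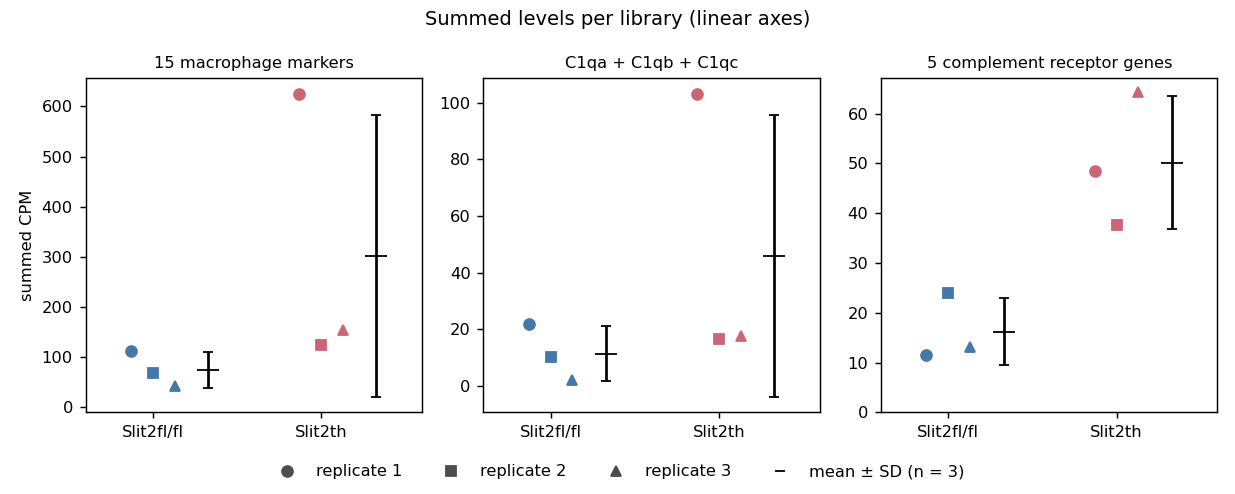
Summed CPM (vertical axes, linear) of 15 macrophage markers, the 3 C1q genes and 5 complement receptor genes in each library, with Slit2fl/fl in blue, Slit2th in red and the mean ± SD of 3 libraries in black. Slit2th replicate 1 stands highest for the markers (626 CPM) and for C1q (103 CPM), while all 3 Slit2th libraries are above Slit2fl/fl for the receptors.

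Among the other genes, Colec12, a scavenger receptor with a collectin domain, stood at 19.5, 74.5 and 82.4 CPM in Slit2fl/fl against 236.5, 99.2 and 132.1 CPM in Slit2th. Its log2 fold change was 1.41 (SE 0.57, adjusted p = 0.447 by edgeR), and 0.54 without replicate 1 of both groups. Csmd1, a large membrane protein with complement control domains, had the highest level of the wider list at 51.7 CPM per kb, and its log2 fold change of 0.91 (SE 0.65) became -0.18 (SE 0.18) without replicate 1 of both groups. C1qbp, a mitochondrial protein that can bind C1q, had -0.19 (SE 0.36), and Cr2, a complement receptor of B cells, 1.04 (SE 1.15). The terminal components were near 0, with Hc, C6 and C9 at 1, 1 and 8 counts over all 6 libraries and C7 and C8g at 0. The lectins Mbl1, Mbl2 and Colec10 and the protease Cfi were at 0 in every library, which allows up to 3 counts in each.

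By centred log2 CPM over the 6 libraries, the tested genes nearest to Cd59a were Smim19, Stambp and Zscan20, at a root mean square difference of 0.100 to 0.151 on the log2 scale, where Cd59a itself varied by 0.437. Nearest to Serping1 were Casc1, Nthl1 and Osbpl9 at 0.263 to 0.310, beside a variation of 0.942. For C1ra they were Gclm, Rc3h1 and Gm12289 at 0.0938 to 0.125, beside 0.589. All of these share the libraries and their depth, and the order is a description. Casc1 and Nthl1 had log2 fold changes of -2.77 and -2.47 and Smim19 -0.76, a sign that the measure of likeness brings with it.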

How the data were processed

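Per the labels and the study's methods, RNA of 6 cultures was made into TruSeq libraries and aligned with HISAT2 to mm10, while the build field of the labels names GRCm39. The authors deposited whole-number read counts per gene, not normalized. The counting program, strand setting and annotation are not given in the sources used here. Positions, exon lengths and overlaps come from GENCODE M21 (GRCm38), in which 20159 of 20173 identifiers were found.

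Genes reaching a CPM of 1 in 3 or more libraries were normalized by TMM and compared with the quasi-likelihood test of edgeR 4.0.16 (R 4.3.3), without covariates, adjusting p-values over all genes (Benjamini-Hochberg). CPM values are TMM-normalized, except that floors and pooled rates use library totals. Standard errors are the log2 fold change over the square root of the test's F. The function was tested on simulated counts. DESeq2 1.42.0, other scalings and filters, the replicate number as a block and left-out libraries were alternatives. The 9 genes, the wider complement list and the marker lists (macrophage, fibroblast, glia, sympathetic neuron, adipocyte, sperm) were chosen with earlier results of these data known. The genes named are the 9, genes of the wider list that passed the filter or are at few counts, and some of the markers. Also named are the 3 genes nearest in pattern to each of the 3 of the 9 with the highest level per length. The 7 adipocyte markers in the table, listed as a check for Cfd, summed to 2.65 to 59.1 CPM. Of the wider list 1 gene, which stays in the counts, and of the motifs 1 are not reported here.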

Additional observations from a re-analysis of the deposited data

How the results depend on the processing

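Over the 13 alternatives, the adjusted count of the other complement genes stayed at 0 (adjusted p of 0.0514 to 0.999 where given), but not all 15 were tested in each. DESeq2 gave no adjusted p for Cr2, C5ar1, Itgb2, C1qc and Itgam. For C1qa it gave neither a raw nor an adjusted p, at a log2 fold change of 4.16 (SE 2.63). The filter on all 6 libraries left out Cr2, Itgb2, C1qa, C1qc and Itgam. The median over those of the 7 genes that could be fitted, between 4 and 7 of them, ran from -0.99 to -0.57, so that part of this range comes from the changed set. The 7 calls at a raw p became 4 with the filter on all 6 libraries and 3 to 5 with single libraries left out, 3 without Slit2th replicate 1 (C1s1, C3ar1 and Cd59b) and 4 without Slit2th replicate 3. Cd46 and C3 could each not be fitted in 5 alternatives, where they failed the filter, Cd46 among others whenever a Slit2th library was left out. Without Slit2th replicate 2, C3 was at -0.62 and Cfb at -2.46. Serping1, Cd55 and Cd59a kept their sign in all 13, and C1ra in 12. Over all genes, 0 passed by edgeR after adjustment (1309 raw), against 34 by DESeq2, 7 with no filter, 1 without Slit2fl/fl replicate 1, and 377 (1999 raw) without replicate 1 of both groups. Without Slit2th replicate 3 the raw count was 823, and without Slit2th replicate 2 it was 839. The replicate numbers come from the descriptions only, so same-numbered libraries were not taken as pairs. Their deviations correlated at 0.292, 0.244 and 0.0808, against -0.312 to 0.255 between libraries of unlike number. Of the 6 libraries, 4 correlated best with their own number, and these values do not settle whether the numbers mark pairs. With the replicate block the median was -0.90, 6 other complement genes had a raw p under 0.05 and 0 an adjusted one. Over all genes, 1614 had a raw p under 0.05 by edgeR's test with the block, and 0 an adjusted one. At these depths C3, C4b and Cfb, with 1 to 7 counts where found, allow no comparison.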
